A study of Chlamydomonas reinhardtii with 12 samples.

Results

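*Chlamydomonas reinhardtii* (hereafter *Chlamydomonas*) is a unicellular green alga and a model of photosynthesis under changing light. The response of its wild type (WT, strain CC-125, mating type plus) to high light was measured by stranded mRNA sequencing in 6 of the 12 libraries of the series. The cells had been grown in TAP, a medium with acetate, moved to Sueoka's high salt medium and kept at 5 µmol photons per square metre and second (low light, LL), and they were sampled before and after 60 min at 300 µmol photons per square metre and second (high light, HL). The groups were WT LL and WT HL with 3 libraries each, named A, B and C here, and both held the same strain with no mutation or agent added. The other 6 libraries came from the *phot* mutant, which lacks the blue-light receptor phototropin, under the same 2 light conditions. The LL cells were sampled before the light was raised, so that light and the 60 min between the samplings cannot be told apart. *PHOT1*, the gene of phototropin, was read in all 6 WT libraries. In CPM, the unit of counts scaled to library size after TMM normalization, it was at 271, 274 and 283 CPM in LL and 215, 199 and 199.8 CPM in HL.

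A shift to strong light gives the chloroplast more excitation than carbon fixation can use. Green algae are known to answer in several ways: they shrink the light-harvesting antenna of photosystem II, dissipate energy as heat by energy-dependent quenching (qE), make pigment-binding stress proteins, and, as CO2 is drawn down, switch on a CO2-concentrating mechanism (CCM) that carries bicarbonate to Rubisco in the pyrenoid. The 5 qE genes and the 5 CCM core genes all rose in WT. The description here concerns the other genes: 10 lists of the study's photoprotection and CCM genes sorted by role, a list of 31 further genes from the same tables, and 407 transcription factors and other regulators.

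The 6 libraries held between 27146097 and 32813576 counts. Correlations across genes of log2(CPM + 1) lay between 0.977 and 0.995 within a light condition and between 0.773 and 0.842 across conditions, and no pair of libraries agreed within sampling noise (chi-square of at least 20.6 per degree of freedom over genes with at least 20 counts). The HL libraries were not equally far from LL. Among genes raised past 2-fold, HL library A was the highest of the HL libraries in 87.4% and HL library B the lowest in 82.9%, and the median distance from the LL mean was 2.05, 1.58 and 1.76 on the log2 scale in HL A, B and C. For that reason, values without a library are given wherever they differ by more than 1.5 times.

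The first question was how much of the genome moved. Of 13822 genes tested, 9493 passed an adjusted p of 0.05 in the quasi-likelihood test of edgeR (adjusted by Benjamini-Hochberg), which is 68.7% of the genes. A total of 4813 genes (34.8%) rose and 4680 (33.9%) fell, and the genes had a median log2 fold change of 0.00. A second call, made against a 2-fold change, was passed by 3756 genes (27.2%), of which 1732 rose (12.5%) and 2024 fell (14.6%). Fold changes ran from -8.58 to 9.11 on the log2 scale, and in 10213 genes (73.9%) no LL library overlapped with any HL library. The balance of rises and falls depended on the scaling: with library totals only, 65.9% of the called genes rose in place of 50.7%, and the median of all genes moved by 0.33 upward, while upper-quartile factors moved it to -0.17. CPM values are shares of the counted mRNA, and a state held by fewer cells cannot be told apart from less RNA per cell. The plot of response against level shows where the genes of 5 role lists lie in this field.

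**Figure D1:**
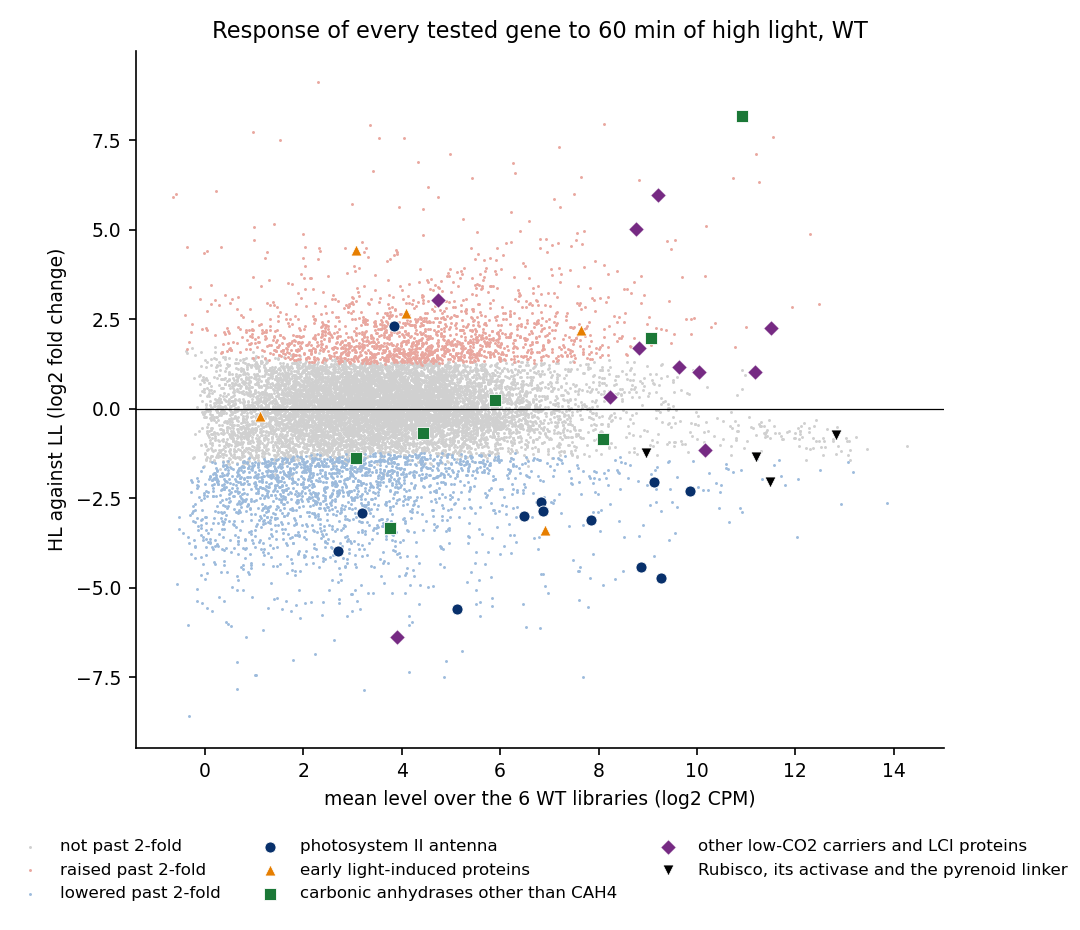
Log2 fold change of HL against LL (vertical) against the mean level over the 6 WT libraries in log2 CPM (horizontal), 1 point for each of 13822 genes, coloured by the 2-fold call, with the members of 5 role lists as larger symbols. The photosystem II antenna lies between -5.59 and 2.31, and the carbonic anhydrase at 8.17 is *CAH5*.

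The most abundant messages lost share. The 100 genes with the most counts held 53.0%, 49.8% and 56.6% of all counts in LL libraries A, B and C, and 39.7%, 39.4% and 41.2% in HL. Each LL library was therefore above each HL library. Of these 100 genes, 76 fell and 13 rose, against 33.9% and 34.8% of all genes, and their median log2 fold change was -0.80. Most of these falls were moderate, since 15 of the 100 passed the 2-fold call downward and 10 upward.

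The antenna of photosystem II fell almost as a whole. It is made of the major light-harvesting proteins LHCBM1 to LHCBM9, which form trimers, and of minor monomeric proteins that join the trimers to the core. All 12 genes were called: 11 fell, all past 2-fold (background 14.6% of genes), and *LHCB7* rose. The summed level of the 12 genes was 5493, 6045 and 5264 CPM in LL and 718, 893 and 717 CPM in HL, 7.22-fold lower in HL. The median log2 fold change of the list was -2.95.

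*LHCBM2* (Cre12.g548400), one of the most highly counted antenna genes, was at 1223, 1220.0 and 1122 CPM in LL and 50.5, 47.3 and 37.9 CPM in HL. It fell by 26.3-fold (-4.72 ± 0.19 on the log2 scale, SE), and its lowest LL library was far above its highest HL library. *LHCBM4* had the largest fall of the antenna, from 71, 75.5 and 59.8 CPM to 1.77, 1.46 and 1.06 CPM (-5.59 ± 0.21), and *LHCBM6* went from 895, 1002 and 769 CPM to 38, 51.7 and 34.4 CPM (-4.42 ± 0.22). *LHCBM1* kept more of its level, with 1484, 1693 and 1466 CPM in LL and 295, 380.0 and 277 CPM in HL (-2.29 ± 0.18). The remaining major genes, *LHCBM3*, *LHCBM5*, *LHCBM7*, *LHCBM8* and *LHCBM9*, changed by -3.97 to -2.61. Of the minor antenna, *LHCB4* (CP29) fell from 834, 919 and 943 CPM to 194, 231 and 221 CPM (-2.06 ± 0.16) and *LHCB5* (CP26) from 202, 222 and 194 CPM to 26.8, 31.1 and 27.7 CPM (-2.85 ± 0.15). Adjusted p-values of the 12 genes were at most 9.88e-06 (edgeR, Benjamini-Hochberg adjustment). Several *LHCBM* genes are near copies of each other, so reads that could fit more than 1 of them make their separate values uncertain.

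*LHCB7*, the antenna gene that rose, was at 4.7, 5.0 and 4.46 CPM in LL and 28.1, 20.8 and 21.6 CPM in HL. The change was 2.31 ± 0.16 on the log2 scale, in the direction opposite to the other 11 members, and lay between 2.16 and 2.40 when any 1 library was left out. The early light-induced proteins (ELI), relatives of the antenna that in plants are known to appear transiently under strong light, were split as well. *ELI1* rose from 4.23, 5.2 and 4.32 CPM to 38.8, 24.7 and 24.2 CPM (2.67 ± 0.21), and *ELI2* from 61.8, 64.5 and 86.5 CPM to 359, 300.1 and 321 CPM (2.20 ± 0.18). *ELI3* fell from 209, 239.6 and 209 CPM to 26.2, 17.8 and 18.5 CPM (-3.40 ± 0.19). *ELI5* was near the limit of detection in LL, at 0.431, 1.09 and 0.598 CPM, and was at 33.9, 3.62 and 9.85 CPM in HL. It rose by 4.42 ± 0.79, or by 3.19 without HL library A, in which it was highest. *ELI4* was at about 2 CPM in all 6 libraries and did not pass the test (-0.21 ± 0.21, adjusted p = 0.388, edgeR's quasi-likelihood test). In all, 3 of the 5 ELI genes rose and 1 fell, all 4 past 2-fold, against 12.5% and 14.6% of all genes.

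**Figure D2:**
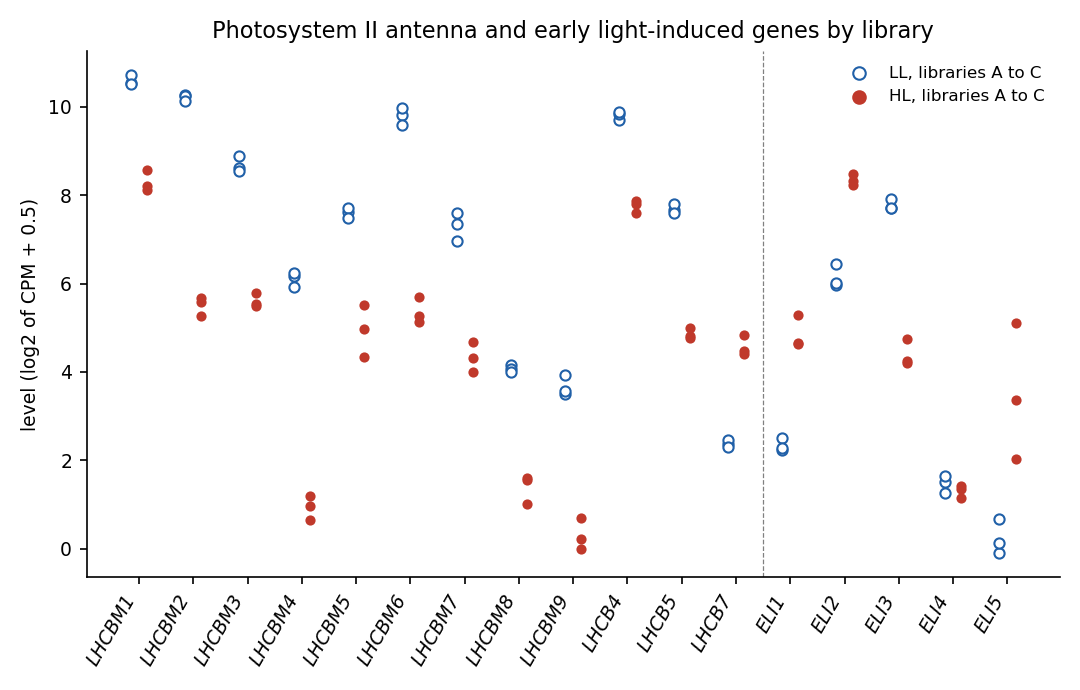
Level of each photosystem II antenna gene (left of the dashed line) and early light-induced gene (right) as log2(CPM + 0.5), with open circles for the 3 LL libraries and filled circles for the 3 HL libraries. For every gene but *ELI4* the 2 light conditions do not overlap; *LHCB7*, *ELI1*, *ELI2* and *ELI5* lie higher in HL.

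Genes of the photosystem cores and of electron carriers fell more often than they rose, and by less than the antenna. Of 10 such genes, 7 fell and 3 rose, with a median of -1.15, against 33.9% and 34.8% of all genes. Past 2-fold, 4 fell and 3 rose (14.6% and 12.5% of all genes), or 2 fell and 3 rose with library totals only. *PSBQ*, a subunit of the oxygen-evolving complex, was at 775, 853 and 985 CPM in LL and 67.2, 114 and 93.8 CPM in HL and fell most (-3.25 ± 0.22). *PSBR* of photosystem II and *PSAK* and *PSAG* of photosystem I fell by 1.56, 2.07 and 1.44 on the log2 scale. *FDX1*, ferredoxin, the electron acceptor of photosystem I, went from 6557, 7766 and 9839.5 CPM to 3989, 3636 and 3773 CPM (-1.08 ± 0.20), and *PSAH* and *PSBP2* changed by -1.22 and -1.08. *PSBP3* and *PSBP4*, relatives of the oxygen-evolving protein PSBP, rose from 37.2, 43.8 and 55.3 CPM to 273, 219 and 227 CPM (2.40 ± 0.19) and from 9.53, 9.84 and 9.48 CPM to 52.8, 34.1 and 39.3 CPM (2.13 ± 0.18).

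*CYC6*, cytochrome c6, a carrier known to stand in for plastocyanin when copper is short, was nearly absent in LL. It had 0.157, 0.199 and 0.138 CPM in LL, at most 6 counts in a library, and 38.6, 23.8 and 34.7 CPM in HL. The rise was 7.56 ± 0.30 on the log2 scale, the largest of the list; the lowest HL library was far above the highest LL library.

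The carbonic anhydrases, which interconvert CO2 and bicarbonate, went in opposite directions according to the gene. *CAH5*, a mitochondrial enzyme whose neighbour *CAH4* is a CCM core gene and its near copy, was at 14.2, 17.3 and 8.7 CPM in LL and 4478, 3384 and 3783 CPM in HL (8.17 ± 0.33). *CAH3*, the enzyme of the thylakoid lumen, rose from 197, 214 and 244 CPM to 1078, 677 and 806 CPM (1.97 ± 0.20). *CAH2*, a periplasmic enzyme, fell from 22.5, 26 and 26 CPM to 1.88, 2.84 and 2.65 CPM (-3.32 ± 0.18), and *CAH9* from 13.4, 12.7 and 10.1 CPM to 3.43, 4.9 and 5.59 CPM (-1.37 ± 0.20). *CAH6* and *CAH7* were lower by 0.85 and 0.68 on the log2 scale, while *CAH8* did not pass the test (0.24 ± 0.17, adjusted p = 0.239, edgeR). Of the 7 genes listed, 2 rose and 4 fell, against 34.8% and 33.9% of all genes. The list did not hold *CAH1*, a periplasmic enzyme that the study names as a target of LCR1, so these counts do not cover all carbonic anhydrases. Past 2-fold, 2 rose and 2 fell (12.5% and 14.6% of all genes), or 1 fell when HL library A or LL library A or B was left out.

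Most genes in the list of other low-CO2 carriers and LCI proteins were higher in HL. Of the 11 tested, 8 rose and 2 fell, against 34.8% and 33.9% of all genes. The 2 falls were *LCI30* and *RHP1*, the latter a gene associated with high CO2 that is described below. Past 2-fold, 5 rose and 1, *RHP1*, fell (12.5% and 14.6% of all genes), or 8 rose and 1 fell with library totals only. *CCP2*, a carrier protein, was at 19.8, 23 and 12.7 CPM in LL and 2059.8, 483 and 949 CPM in HL (5.97 ± 0.53, or 5.27 without HL library A). *LCID*, a relative of LCIB, rose from 26.7, 29.7 and 21.4 CPM to 1271, 487 and 779 CPM (5.03 ± 0.35). *LCIE*, also of the LCIB family, had 6.7, 6.99 and 3.54 CPM in LL and 94.4, 15.2 and 31.9 CPM in HL, with a wide spread in HL (3.02 ± 0.57, or 2.02 without library A). *LCIB* and *LCIC*, whose proteins form a complex around the pyrenoid, were already at 1522, 1474 and 1569 CPM and 988, 1078 and 979 CPM in LL. They reached 4226, 2148 and 2976 CPM and 6242, 3499.8 and 4692 CPM in HL and so rose by 1.03 ± 0.24 and 2.24 ± 0.23. *LCID* and *LCIE* resemble each other and *CCP2* has a near copy, so their separate values are uncertain. *LCI11*, *LCI9* and *LCI24* rose by 1.69, 1.15 and 1.03, *LCI34* did not pass (0.32 ± 0.14), and *LCI30* fell by 1.16.

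Of the Rhesus proteins, membrane channels that in *Chlamydomonas* are associated with high CO2, *RHP1* fell. It was at 29.6, 29.4 and 30.0 CPM in LL and 0.496, 0.276 and 0.324 CPM in HL, an 82.6-fold fall (-6.37 ± 0.20) and the largest fall among the genes of the role lists. *RHP2* was too low for the test, with 15, 25 and 14 counts in LL and 1, 3 and 7 counts in HL. All 4 genes of Rubisco and its helpers fell, against 33.9% of all genes. The small subunit genes *RBCS1* and *RBCS2*, which are near copies, changed by -1.25 ± 0.18 and -0.73 ± 0.19, the activase gene *RCA1* fell from 3009, 3137 and 3993 CPM to 1518, 1156 and 1290.0 CPM (-1.35 ± 0.19), and *EPYC*, the linker protein that holds Rubisco in the pyrenoid, from 4889, 4522 and 4480.4 CPM to 1282, 908 and 1171 CPM (-2.05 ± 0.19). The summed level of the 4 genes was 2.17-fold lower in HL. *EPYC* and *RCA1* fell past 2-fold (14.6% of all genes), and 1 gene of the 4 did so when any 1 library other than HL A was left out. Of the starch enzymes, *STA2*, granule-bound starch synthase, rose by 0.59, a call that was lost without HL library A (0.43), the branching enzyme *SBE4* fell by 1.20, and *SBE1* and *SBE3* did not pass.

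The photoreceptors changed little compared with the antenna. Of 14 genes, 4 rose (28.6%) and 7 fell, against 34.8% and 33.9% of all genes, and only *CRY-DASH1* and *CHR1* were past 2-fold (27.2% of all genes). *CHR1*, channelrhodopsin, the light-gated ion channel of the eyespot, fell from 1259, 1241 and 1148 CPM to 291, 364 and 322 CPM (-1.90 ± 0.16). *CHR2*, the other channelrhodopsin, went from 83.6, 75 and 78.7 CPM to 62.6, 60.7 and 64.6 CPM (-0.34 ± 0.13, adjusted p = 0.0377, edgeR), a call lost with library totals and when any 1 library other than LL C was left out. *CRY-DASH1*, a DASH-type cryptochrome, rose from 1.25, 1.66 and 2.25 CPM to 15.7, 9.67 and 10.9 CPM (2.82 ± 0.25). The animal-like cryptochrome *aCry* rose by 1.25 and *CRY-DASH2* by 0.32, and the plant-like *pCry* fell by 0.97. The call of *CRY-DASH2* was lost with DESeq2 or upper-quartile factors and when LL library B or any 1 HL library was left out. Among the opsin-related genes *COP10* rose by 1.29, *COP7*, *COP8* and *COP9* fell by 0.90, 0.72 and 0.50, and *COP5* and *COP6* did not pass. *PHOT1* itself changed by -0.43 ± 0.14 and *UVR8*, the UV-B receptor, by 0.21 ± 0.12 with no call. With library totals only, 6 photoreceptor genes rose and 3 fell, so that the balance of small changes in this list depended on the scaling.

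Downstream of the receptors, the E3 ubiquitin ligase that in green algae and plants restrains light signalling is built from CUL4, DDB1, DET1, COP1 and SPA1. *DET1* rose from 1.96, 1.89 and 1.38 CPM to 17.7, 11.4 and 11.5 CPM (2.94 ± 0.23) and *SPA1* from 10.5, 9.8 and 8.51 CPM to 40.4, 27.9 and 29.7 CPM (1.76 ± 0.17). *CUL4* and *Cr_UBC17*, an E2 enzyme, rose by 0.60 and 0.81, and *DDB1* did not pass the test. The gene the study lists as *COP1* (Cre01.g002500), a symbol that is also in use for an opsin of *Chlamydomonas*, was at 640.2, 686 and 1022 CPM in LL and 1123, 961 and 1048 CPM in HL and did not pass (0.42 ± 0.20). Its LL library C overlapped with HL, and without that library the gene passed (0.70). Its identity as the ligase gene was not checked here. Of the target side, *CrCO* (CONSTANS) went from 250.2, 261 and 259.5 CPM to 626, 403 and 473 CPM (0.96 ± 0.18), *NF-YC* rose by 0.97 and *NF-YB* was not called (0.04). *ROC75*, a clock component, fell from 53.8, 42.6 and 36.8 CPM to 17.6, 19.5 and 18.6 CPM (-1.26 ± 0.16). In all, 6 of these 10 genes rose and 1 fell, against 34.8% and 33.9% of all genes, and 8 rose with library totals only.

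Of 6 genes of slower photoprotective routes and stress signalling, 5 rose moderately and 1 fell, against 34.8% and 33.9% of all genes. *ZEP1*, zeaxanthin epoxidase of the xanthophyll cycle, went from 143, 131 and 114 CPM to 407, 236 and 286 CPM (1.26 ± 0.21), *STT7*, the kinase of state transitions, from 215, 210.0 and 185 CPM to 457, 337 and 389 CPM (0.96 ± 0.16), and *CAS*, the thylakoid calcium sensor, from 181, 194 and 214 CPM to 406, 347 and 319 CPM (0.86 ± 0.16). *SAK1* and *SOR1*, regulators of the response to singlet oxygen, rose by 0.83 and 0.57. The groups overlapped for *SOR1* (LL at 46, 77.7 and 50.7 CPM and HL at 68.1, 105 and 85.2 CPM), and its call was lost with upper-quartile factors and when LL library A or C or HL library B or C was left out. *VDR1*, a relative of violaxanthin de-epoxidase, fell from 19.8, 18.4 and 18.9 CPM to 3.26, 7.81 and 5.09 CPM (-1.81 ± 0.25). None of the 5 rises was past 2-fold and the fall of *VDR1* was, against 12.5% and 14.6% of all genes. With library totals only, 1 rise and 0 falls were past 2-fold. The plot of responses by role sets these lists beside the middle quartiles of all genes, which ran from -0.76 to 0.73.

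**Figure D3:**
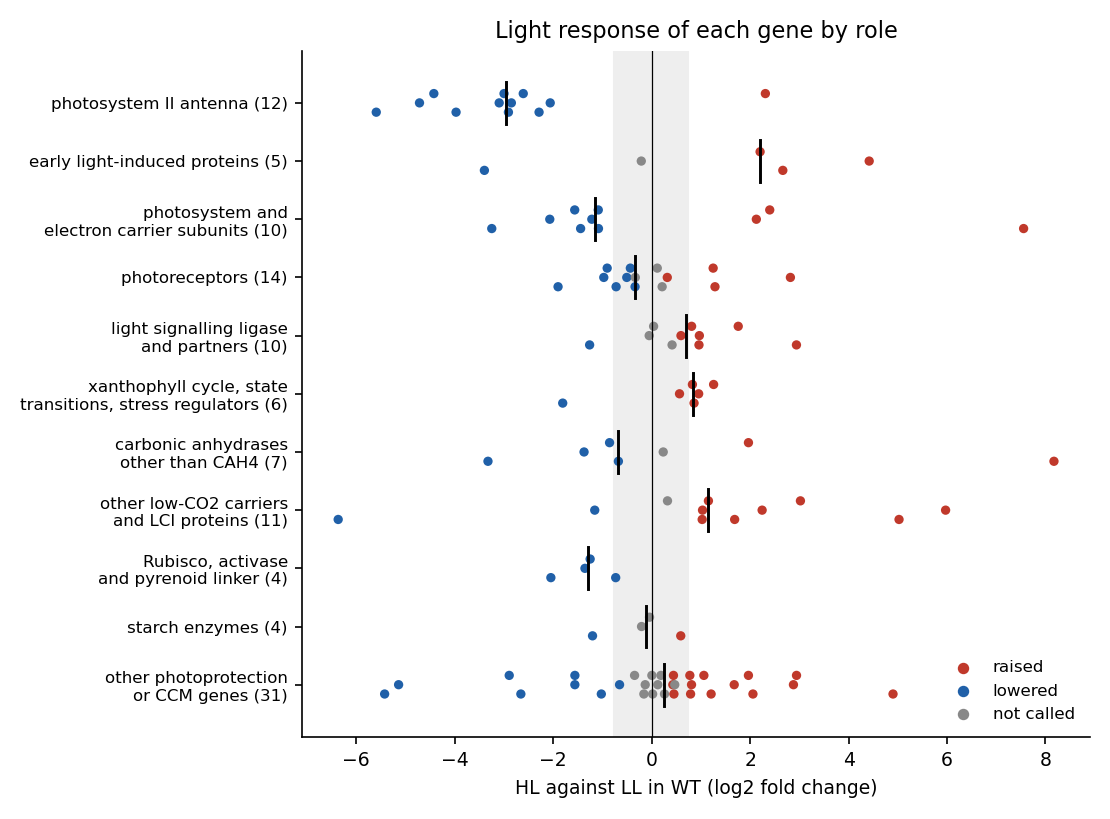
Log2 fold change of HL against LL for every tested gene of 11 role lists (number tested in parentheses), red for raised, blue for lowered and grey for not called, with a black bar at the list's median and the middle quartiles of all tested genes shaded. The antenna, Rubisco with its helpers and the photosystem subunits have medians of -2.95, -1.30 and -1.15.

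The last list of the study's genes held 31 members of mixed function, of which 14 rose (45.2%) and 8 fell (25.8%), against 34.8% and 33.9% of all genes. Past 2-fold there were 6 in each direction, against 12.5% raised and 14.6% lowered. *TEF9* rose most, from 10.2, 12.9 and 13.2 CPM to 447, 309 and 335 CPM (4.90 ± 0.21), followed by *SMM7*, from 40.0, 45.9 and 44.6 CPM to 404, 272 and 327 CPM (2.94 ± 0.18). *HPR1*, hydroxypyruvate reductase of photorespiration, rose from 127, 134 and 155 CPM to 618, 472 and 535 CPM (1.97 ± 0.17), and *TGL18* by 1.68. *ACP2* was among the most counted genes, with 13617, 9905 and 16882 CPM in LL, and was at 2178, 2080.4 and 2148 CPM in HL (-2.66 ± 0.24). *ULP1* fell from 369, 417 and 465 CPM to 50.8, 63.3 and 54.2 CPM (-2.89 ± 0.17). Larger falls were those of the unnamed Cre16.g652800, from 7.96, 7.19 and 9.25 CPM to 0.0708, 0.251 and 0.206 CPM (-5.42 ± 0.29), and Cre10.g452250. The latter went from 366, 201 and 163 CPM to 2.05, 12.2 and 6.21 CPM (-5.14 ± 0.57, or -5.86 without HL library B). Of the rises, the unnamed Cre16.g662600 went from 53.6, 47.6 and 38.4 CPM to 662, 96.7 and 270 CPM (2.88 ± 0.54, or 1.98 without HL library A). *CIA5*, the zinc-finger master regulator of the CCM, was at 138, 147 and 129 CPM in LL and 137, 111 and 124 CPM in HL, and its change of -0.16 ± 0.14 did not pass (adjusted p = 0.343, edgeR's quasi-likelihood test). The 14-3-3 genes *FTT1* and *FTT2* changed by 0.45 ± 0.17 and 0.02 ± 0.17, the latter with no call.

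Regulators of transcription passed the first call about as often as other genes, while their rises past 2-fold were a smaller share. Of 407 listed, 372 were tested, 113 rose (30.4%) and 128 fell (34.4%), against 34.8% and 33.9% of all genes. Past 2-fold, 29 rose and 60 fell, against 12.5% and 14.6% of all genes. Both directions together made 23.9% of the regulators tested, against 27.2% of all genes. The median of the regulators was -0.03, and it became 0.29 with library totals only, when 43 rose and 43 fell past 2-fold. The 5 most raised under the rule used here (called, mean of at least 3 log2 CPM, no overlap) were a bZIP gene (Cre06.g310500), *LCI8*, a TAZ gene (Cre03.g212977), the CCM core gene *LCR1* and *RWP5*. The bZIP gene had at most 7 counts in a LL library and 43.5, 4.57 and 14.8 CPM in HL (6.63 ± 0.92, or 5.51 without HL library A). *LCI8* encodes an N-acetyltransferase, probably of arginine synthesis, and the study regards its place among the regulators as an error. It rose from 8.39, 8.28 and 9.57 CPM to 111, 72.7 and 84.3 CPM (3.35 ± 0.19), and the RWP-RK gene *RWP5* from 10.9, 9.74 and 9.29 CPM to 71, 29.4 and 48 CPM (2.30 ± 0.28).

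Under the same rule, with its cut on the mean level, the regulator that fell most was a MYB-related gene (Cre06.g275350), at 25.3, 17.1 and 14.1 CPM in LL and 0, 0.151 and 0.0588 CPM in HL (-7.84 ± 0.44, or -9.01 without HL library B). Next under the rule were a MYB gene (Cre16.g677382, -5.50 ± 0.48, or -6.20 without HL library B) and *NAB1*. *NAB1* encodes an RNA-binding protein known in *Chlamydomonas* to hold back the translation of *LHCBM* messages. It was at 331, 367 and 448 CPM in LL and 7.58, 11.3 and 9.38 CPM in HL, a 40.5-fold fall (-5.34 ± 0.22), so that it fell together with 11 of the 12 antenna genes. A C3H zinc-finger gene (Cre03.g146267) and an AP2-EREBP gene (Cre06.g275500) completed the 5, with -3.92 ± 0.48 (or -4.58 without HL library B) and -3.74 ± 0.22.

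By family, the clearest pattern was in VARL genes, relatives of a *Volvox* regulator of cell fate. Of 10 tested, 6 fell, all past 2-fold, against 33.9% of all genes lowered and 14.6% lowered past 2-fold. None rose, against 34.8% of all genes. The median of the family was -1.78 and stayed between -1.95 and -1.45 under the other scalings. *QER1* of this family had at most 2 counts in a HL library and was at 4.51, 3.68 and 2.48 CPM in LL, at least 39.5-fold higher than in HL when each HL library is set to the floor of 3 counts. The family counts below stand against 34.8% of all genes raised and 33.9% lowered. SBP genes had 12 falls (48.0%) and 5 rises among 25, and *QER7*, one of them, fell from 6.51, 7.05 and 5.84 CPM to 1.84, 1.63 and 1.53 CPM (-1.96 ± 0.17). RWP-RK and Nin-like genes had 9 falls (60.0%) and 3 rises among 15, and *RWP5* above was the one past 2-fold upward, but 4 falls and 4 rises with library totals only. SET genes, whose proteins methylate histones and other targets, had 6 falls (42.9%) and 1 rise (7.14%) among 14, with a median of -0.10 that became 0.25 with library totals only. GNAT acetyltransferases had 15 rises (62.5%) and 4 falls (16.7%) among 24, with a median of 0.53. TRAF proteins, with 11 rises (40.7%) and 7 falls (25.9%) among 27, lay nearer to the shares of all genes. *QER1* and *QER7* were named after their values were seen, and no test compared a family with other genes.

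**Figure D4:**
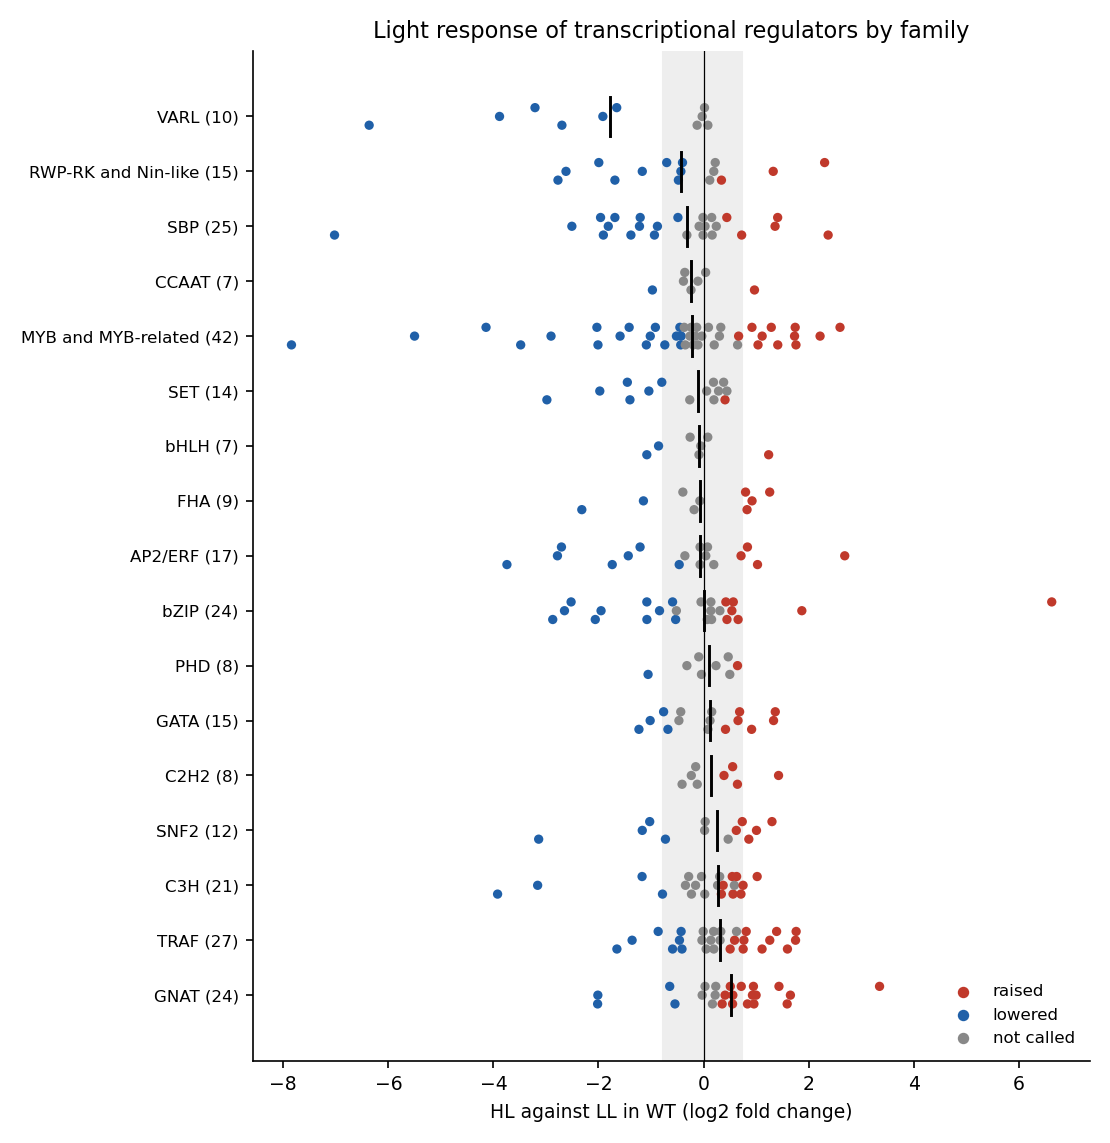
Log2 fold change of HL against LL for the tested genes of 17 families of transcriptional regulators (number tested in parentheses), ordered by median (black bar), red for raised, blue for lowered and grey for not called, with the middle quartiles of all genes shaded. VARL has the lowest median at -1.78 and GNAT the highest at 0.53.

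Several of these genes lie side by side, and they did not always move together. Positions are those of RefSeq for assembly Chlamydomonas_reinhardtii_v5.5, whereas the authors name their assembly as version 5. On chromosome 6 *LHCBM4* (5405936 to 5407630), *RHP1* (5418050 to 5422395), *LHCBM9* (5428650 to 5433565) and *LHCBM8* (5433613 to 5437765) all fell past 2-fold, by 2.91 to 6.37 on the log2 scale. The 2 tested genes between *LHCBM4* and *RHP1* changed by 0.48 and 0.01. On chromosome 4 *CCP2* (2617297 to 2620361) and *LCID* (2620453 to 2624280) rose next to each other and *LCIE* (2687849 to 2690582) further along. *CAH2* (2656608 to 2661032), between *LCID* and *LCIE*, fell. Unnamed neighbours moved as well. Cre04.g223100, next to *CAH2*, rose from 1406, 1528 and 1060 CPM to 11172, 9100 and 9977 CPM (2.92 ± 0.22). Cre04.g223300, next to *LCIE*, rose from 44.3, 49.1 and 23.6 CPM to 4707, 2275 and 3173 CPM (6.44 ± 0.40). Between *LCID* and *LCIE*, Cre04.g222950, Cre04.g223200 and Cre04.g223225 changed by -3.35, -2.27 and -2.58. Of the 13 genes from 2608887 to 2693793, 7 rose and 5 fell, against 34.8% and 33.9% of all genes. The stretch was chosen around the study's genes. On chromosome 5 *CAH5* (768025 to 770332) and *CAH4* (772398 to 774699) rose together, and the gene before *CAH5* rose by 1.22.

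**Figure D5:**
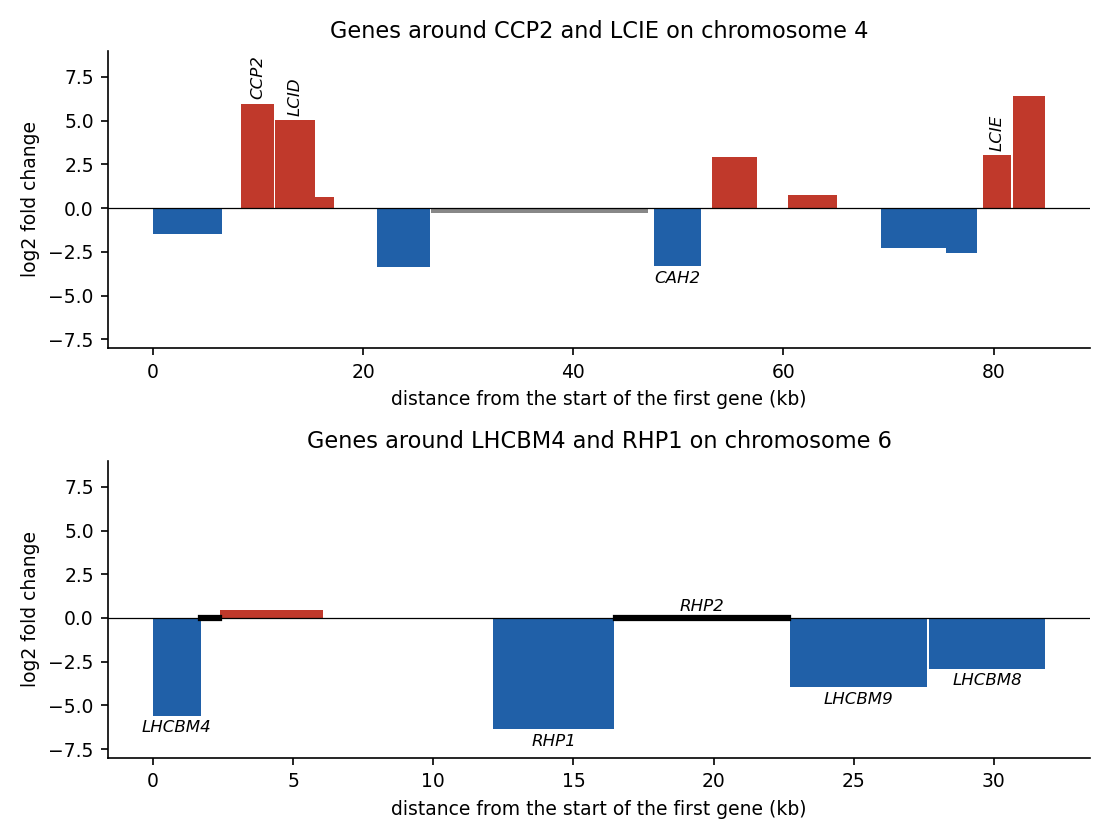
Log2 fold change of HL against LL for genes along 2 stretches, with each bar as wide as the annotated gene and the distance from the start of the first gene in kb, red for raised, blue for lowered and grey for not called. On chromosome 4 *CCP2* (5.97) and *LCID* (5.03) stand on 1 side of *CAH2* (-3.32) and *LCIE* (3.02) on the other, on chromosome 6 *LHCBM4*, *RHP1*, *LHCBM9* and *LHCBM8* fall, and the 2 thick black lines mark genes that were not tested.

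The same was asked of the whole genome. Of 11354 pairs of tested genes in adjacent places on the 17 chromosomes, 957 had both members past 2-fold, and in 645 of these (67.4%) the direction was the same, with 306 pairs raised and 339 lowered. At 2 places apart the share was 54.4% of 843 pairs, and at 3, 10 and 50 places it was 47.9%, 51.1% and 52.3%. The change was spread over all chromosomes, with between 6.37% and 16.4% of tested genes raised past 2-fold and between 12.5% and 17.7% lowered.

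At the extremes, 10 genes were at the floor of 3 counts or under in every LL library and above 1 CPM in every HL library, and 18 genes did the reverse. The first group held the qE gene *PSBS1* and the second *QER1*. The 10 genes most raised under the rule were *CAH5*, *CAH4*, *CYC6*, 4 qE genes and 3 genes without a name in the sources used here. Of the latter, Cre12.g555700 rose from 1.88, 3.05 and 0.46 CPM to 348, 229 and 299 CPM (7.29 ± 0.48, or 7.96 without LL library B) and Cre17.g720900 from 0.588, 0.53 and 0.184 CPM to 84.9, 39.6 and 62.7 CPM (7.11 ± 0.39). The 10 most lowered included *RHP1* and the MYB-related gene above. Of their unnamed genes, Cre16.g657250 and Cre24.g755997 fell by 7.50 and 7.48 on the log2 scale.

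The light response in the *phot* mutant was compared for these 20 genes and for *NAB1*. In a fit over all 12 libraries, the light response differed between *phot* and WT in 7382 of 14251 genes (51.8%). The counts that follow take only differences with an adjusted p under 0.05 (edgeR's quasi-likelihood test of the interaction). For 9 of the 10 most lowered genes the log2 fold change was less negative in *phot* than in WT. Of 9 of the most raised that could be tested, it was higher for 3 and lower for 1, and the others did not pass. The genes were chosen by their WT response, which enters the difference, so this count is a description. The LL levels also differed between the strains: 4 of the 9 lowered genes were at 0.0530 to 3.93 CPM in *phot* LL, against 25.2 to 649 CPM in WT LL. *RHP1*, at 54.4, 57.5 and 55.1 CPM in *phot* LL, had a log2 fold change of -2.82 in *phot*, and *NAB1*, at 580.4, 703 and 558 CPM, one of -0.58.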

How the data were processed

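The 6 WT libraries and the 6 *phot* libraries were deposited by the authors as 1 table of raw counts per gene (stranded mRNA, STAR 2.5.3a per the submitters' processing notes, reads counted by HTSeq on the reverse strand, assembly version 5). Its columns give the group but no replicate number, so the letters A, B and C follow the order of the columns. The study calls replicates biological.

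Here, genes above 1 CPM in at least 3 of the 6 WT libraries (13822 of 17741; 962 had 0 counts) were fitted with TMM factors and edgeR 4.0.16 (limma 3.58.1, R 4.3.3), with the quasi-likelihood test of HL against LL, Benjamini-Hochberg adjustment over all genes and a threshold of 0.05. The second call tested against a log2 fold change of 1 (glmTreat). Values are fold changes ± SE, and the light response in *phot* against WT was an interaction over 12 libraries. The floor was 3 counts per library.

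The genes named were the members of the study's lists, the 10 most raised and lowered and the 5 regulators each way. The last 2 sets held genes called, with a mean of at least 3 log2 CPM and groups without overlap. Of unnamed IDs among the 10, 2 each way are given. Unnamed neighbours on chromosome 4 were added for their place and are not among the named genes counted under the alternatives. The members and lists were chosen with earlier results of these data known. Gene names came from the study's supplementary tables, and positions from RefSeq (17738 IDs matched, 3 did not). Alternatives were other scalings, filters, tools (DESeq2 1.42.0, limma-voom), all 12 libraries, and each library left out. The script was tested on simulated data. Protein and promoter sequences were not analysed here.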

Additional observations from a re-analysis of the deposited data

Results flagged for a closer look

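Among the most raised and most lowered genes and regulators, the light response of 12 named in the text differed between *phot* and WT in the fit over all 12 libraries (edgeR's quasi-likelihood test of the interaction, Benjamini-Hochberg adjusted p under 0.05; differences are the log2 fold change in *phot* minus that in WT). Since these genes were chosen by their response in WT, the differences are given as values.

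Of genes that rose in WT, the difference was positive for *CYC6* (3.42), Cre12.g555700 (3.24) and *CAH4* (0.77). *CYC6* was near or at 0 in *phot* LL (0.0530, 0 and 0.0598 CPM), so that its difference depends on values at the floor, and in HL it was at 82.0, 80.0 and 115 CPM in *phot* and 38.6, 23.8 and 34.7 CPM in WT. Cre12.g555700 was also low in *phot* LL (0.186, 0.337 and 0.329 CPM). *LHCSR3.1* (-1.17), *LCI8* (-1.48), the TAZ gene Cre03.g212977 (-1.18) and *RWP5* (-1.51) had a smaller log2 fold change in *phot*. The TAZ gene was at 123, 127 and 158 CPM in *phot* LL and 526, 337 and 491 CPM in *phot* HL. In WT it was at 34.9, 34.8 and 23.8 CPM in LL and 355, 116 and 212 CPM in HL. *RWP5* was low in *phot*, at 1.41, 0.910 and 0.717 CPM in LL and 2.40, 0.980 and 2.27 CPM in HL. Its WT levels were 10.9, 9.74 and 9.29 CPM in LL and 71, 29.4 and 48 CPM in HL. Of genes that fell in WT, *RHP1* (3.49), *NAB1* (4.70) and the AP2-EREBP gene Cre06.g275500 (2.75) fell less in *phot*, where their LL levels were above those of WT. Cre16.g657250 (5.54) and Cre24.g755997 (7.35) were low in *phot* already in LL, at 1.17, 0.809 and 0.777 CPM and at 0.0530, 0.202 and 0.179 CPM, against 45.0 to 76.4 CPM and 287 to 649 CPM in WT LL, so that their differences do not compare like falls.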

How the results depend on the processing

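No paired analysis was possible because the count columns carry no replicate numbers. The number of genes called lay between 8166 and 10536 and the number past 2-fold between 2721 and 4335 (main 9493 and 3756), with 9320 called by DESeq2 and 9501 by limma-voom. With library totals only, 3043 genes fell (main 4680), and the photoreceptor list had 3 falls (main 7). With more than 1 CPM required in all 6 libraries, 12183 genes were tested (main 13822). Past 2-fold, 1328 of them fell (main 2024) and 1393 rose (main 1732), so that 51.2% of these calls were rises (main 46.1%). With upper-quartile factors, 2 starch genes fell (main 1). Leaving out 1 library at a time gave 4 to 8 photoreceptor genes lowered and 0 to 1 starch genes raised. The cause of these changes was not tested. Of 140 named genes, none was reversed, 13 lost and 15 gained the call under at least 1 alternative, and 112, called or not, stayed on the same side of the threshold. The medians of the starch list (0.19) and of all regulators (0.29) changed sign with library totals, and those of 10 of 17 regulator families under at least 1 scaling; scalings shift all genes alike, so these medians lay within that shift. With 3 libraries per group, small changes rest on the spread between few samples.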
